A study of Homo sapiens with 32 samples.

Results

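The genes carried on the mitochondrial chromosome were followed across 4 human endometrial cancer cell lines and 4 treatments. Members were the rows of the deposited expression table whose symbol begins with MT-. There were 13 such rows among 35238, one for each of the 13 mitochondrial mRNAs, and all 13 passed the filter on low values (CPM above 1 in at least 2 libraries, where CPM is reads per 1000000 counted), as did 17011 rows in all. The 2 ribosomal RNAs and 22 transfer RNAs that RefSeq also places on this chromosome were not analysed here. The label therefore holds for messenger RNAs only.

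The study sequenced RNA from Ishikawa cells, in which CTNNB1, the gene of beta-catenin, is wildtype, and from the CTNNB1-mutated lines Ishikawa-S33Y, an Ishikawa derivative, SNGM and HEC265. Cells of each line received 0.1% DMSO as vehicle, paclitaxel, SM08502 or both drugs for 24 h, with 2 libraries in each of the 16 groups. Paclitaxel, a microtubule-stabilising taxane, was dosed at 11 nM for Ishikawa, 6 nM for Ishikawa-S33Y, 11.7 nM for SNGM and 5.6 nM for HEC265. SM08502, an inhibitor of the CDC-like kinases that phosphorylate splicing factors, was dosed at 80, 85, 350.7 and 149 nM in the same order. The doses were chosen per line by their effect on viability, so a treatment is not one concentration across lines. Whether a line is 1 clone is not given in the sources used here.

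Mitochondrial DNA encodes core subunits of the respiratory chain: 7 of complex I, which takes electrons from NADH, 1 of complex III, 3 of complex IV, which passes electrons to oxygen, and 2 of complex V, the ATP synthase. The chromosome is transcribed as long precursors from both strands, and excision of the transfer RNAs that punctuate them releases the mRNAs. How fast each mRNA is matured and degraded then sets its steady level. Of the 13 genes, 12 share one coding strand, and MT-ND6 lies alone on the opposite strand.

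On RefSeq GRCh38.p14 the genes run along the mitochondrial chromosome from MT-ND1, at positions 3307 to 4262, to MT-CYB, at 14747 to 15887. Each is a single exon without introns. MT-ATP8 (8366 to 8572) overlaps MT-ATP6 (8527 to 9207) by 46 bases, and MT-ND4L (10470 to 10766) overlaps MT-ND4 (10760 to 12137) by 7 bases. How reads in an overlap were counted, and whether counting used strand, is not given in the sources used here, so these neighbours, and MT-ND6 (14149 to 14673) and transcripts antisense to it, may share reads.

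Depth was 13.03 M to 34.1 M reads (M, 1000000 reads) in 30 of the 32 libraries. Replicate 2 of the combination was shallower in Ishikawa-S33Y (2.99 M) and in SNGM (1.61 M), yet the least read member there still had 290 reads (MT-ND4L in SNGM). The table sums to the same total in every library, so a higher share for one gene lowers all others, and more mitochondrial RNA per cell cannot be told apart from less nuclear-encoded RNA. RNA input was 350 ng for Ishikawa libraries but 500 ng for those of the other lines, per the labels, which cannot be told apart from the line. Cells were plated in duplicate. Nothing in the labels makes the replicates separate experiments, and p-values measure only the spread between these duplicates. The epithelial markers EPCAM, CDH1, KRT8, KRT18, KRT19 and MUC1 had a median above 1 CPM in every line. Of 4 endometrial or Müllerian markers, all 4 did in Ishikawa and Ishikawa-S33Y, 3 in HEC265 and 2 in SNGM, where SOX17 was at 0.

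The 13 mRNAs took between 3.91% and 14.3% of the reads of a library, and Ishikawa-S33Y stood apart from the other lines in this. Its 8 libraries ranged from 11.2% to 14.3%, with a median of 13.5%. The 8 libraries of Ishikawa ranged from 3.91% to 10.8% (median 6.78%), those of SNGM from 4.07% to 9.99% (median 7.02%) and those of HEC265 from 4.80% to 7.20% (median 6.15%). Every Ishikawa-S33Y library was therefore above every library of the other lines, whereas the other lines overlapped one another. These shares are a summed score over the members and are given without a test.

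Within lines, the range of the treated libraries overlapped that of the vehicle libraries in 9 of 12 comparisons. On vehicle the Ishikawa libraries held 6.81% and 7.95%, those of Ishikawa-S33Y 13.2% and 13.6%, those of SNGM 5.37% and 9.99%, and those of HEC265 6.43% and 6.84%. With SM08502 the values were 10.8% and 3.91% for Ishikawa, 11.2% and 13.4% for Ishikawa-S33Y, 8.90% and 6.65% for SNGM, and 7.20% and 4.80% for HEC265. In Ishikawa and HEC265 the SM08502 libraries lay on either side of both vehicle libraries, and in Ishikawa-S33Y and SNGM the groups overlapped.

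After paclitaxel, Ishikawa libraries held 6.75% and 10.1%, Ishikawa-S33Y 14.2% and 12.4%, SNGM 4.95% and 8.75%, and HEC265 5.29% and 5.87%. After the combination, Ishikawa libraries held 5.51% and 4.68%, Ishikawa-S33Y 13.7% and 14.3%, SNGM 7.38% and 4.07%, and HEC265 5.64% and 7.02%. Both combination libraries were below both vehicle libraries in Ishikawa and above them in Ishikawa-S33Y, and both paclitaxel libraries were below both vehicle libraries in HEC265. Averaged over lines, the share differed from vehicle by -0.41 percentage points with SM08502, -0.23 with paclitaxel and -0.995 with the combination, against a pooled SD within groups of 2.01. The 1.61 M reads of the shallowest library gave its share of 4.07% a 95% Wilson interval of 4.04% to 4.11%, which covers counting error only and is far narrower than the gap to its replicate.

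**Figure D1:**
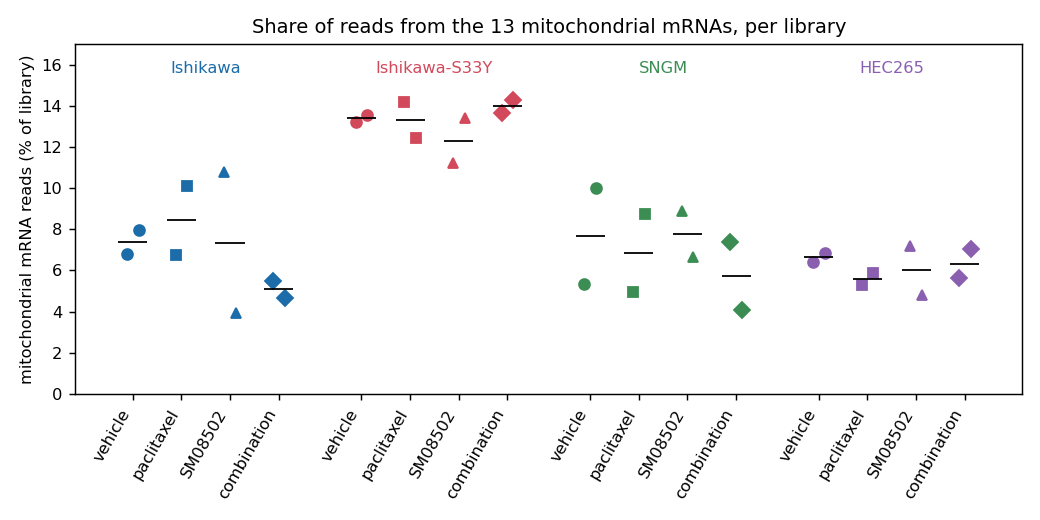
Percent of each library's reads that came from the 13 mitochondrial mRNAs (vertical axis), for 4 lines and 4 treatments (horizontal axis). Each symbol is 1 library, replicate 1 on the left, and each black line is the mean of 2 libraries; the 8 Ishikawa-S33Y libraries sit between 11.2% and 14.3%, above the 24 libraries of the other lines.

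Ishikawa-S33Y was then compared with its parent on vehicle, gene by gene. All 13 mRNAs had a higher level in Ishikawa-S33Y, by a median of 0.79 on the log2(CPM + 1) scale, while the median of all genes tested was -0.05. The 13 mRNAs make up the mitochondrial share given above, so their signs are not independent of one another or of that share. In limma's moderated test with Benjamini-Hochberg adjustment over all 17011 genes, 3 of 13 passed an adjusted p of 0.05, all higher and all of complex I; of all genes, 48.3% passed in either direction and 20% were higher. At an unadjusted p under 0.05 the count was 7 of 13. The members' count was thus below the table's share in either direction and near its share of higher genes.

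The 3 called genes are MT-ND5, MT-ND6 and MT-ND4L. MT-ND5 (12337 to 14148), which encodes a large proton-pumping subunit at the far end of the complex I membrane arm, had 4326 and 6290 CPM in the parent and 16277 and 16462 in Ishikawa-S33Y. The groups did not overlap, and the log2 difference was 1.65 (SE 0.54, limma adjusted p = 0.0154, 2 libraries a group). MT-ND6, the gene of the opposite strand, had 1393 and 2477 CPM in the parent and 5660 and 5732 in Ishikawa-S33Y, a log2 difference of 1.62 (SE 0.59, limma adjusted p = 0.0281).

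MT-ND4L, the smallest complex I subunit here, had 581 and 531 CPM in the parent and 1477 and 1651 in Ishikawa-S33Y, again without overlap. Its log2 difference was 1.49 (SE 0.47, limma adjusted p = 0.0123). The least different gene was MT-CO3, a core subunit of complex IV, with 8223 and 7910 CPM in the parent and 8424 and 8922 in Ishikawa-S33Y. That gave 0.10 (SE 0.28, limma adjusted p = 0.799), and the groups lay close together. The other 9 genes had differences of 0.50 (MT-ND3) to 1.24 (MT-ND4, adjusted p = 0.0564) and did not pass.

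Markers of other cell types were compared between these lines too. Of 6 stromal fibroblast markers, 3 had a median above 1 CPM in both lines, and their sum was 31.4 to 194 CPM in Ishikawa libraries and 714 to 1165 in those of Ishikawa-S33Y. Most of it was COL1A1, a fibrillar collagen chain (median 66.4 and 971 CPM), while DCN and LUM had medians below 1 CPM in both lines and PDGFRB was at a median of 0. Summed endothelial markers stayed at or below 10.6 CPM and summed leukocyte markers at or below 4.73 CPM in every library. The part of these markers in the line difference was not tested.

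The line calls moved with the libraries and with a measure of transcript length. For this measure, the length score, log2(CPM + 1) was averaged over 42 genes with long transcripts, and the average over 83 ribosomal protein genes was taken off. It was -2.71 and -2.27 in the Ishikawa vehicle libraries and between -1.72 and -1.07 in all Ishikawa-S33Y libraries. With the score as a covariate no member passed: MT-ND5 was at 0.62 (adjusted p = 0.503), MT-ND6 at 0.36 (adjusted p = 0.740) and MT-ND4L at 1.02 (adjusted p = 0.221). The score and the line are largely confounded, and its part in the result cannot be told apart from that of the line. Leaving out Ishikawa vehicle replicate 1 left 1 call, leaving out Ishikawa-S33Y vehicle replicate 1 left 1 and leaving out its replicate 2 left 0. Conversely, more members passed without either Ishikawa SM08502 library, SNGM vehicle replicate 2 or either SNGM combination library. The members' log2 differences between the lines were unchanged in these fits. Only the spread estimate of each gene, which is shared by all groups, had changed.

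Over all 8 libraries of a line, treatments pooled, the CPM of 7 of 13 members did not overlap between Ishikawa and Ishikawa-S33Y (28.9% of all genes did not), nor did 7 of 13 between Ishikawa-S33Y and SNGM (42.6%) and 12 of 13 between Ishikawa-S33Y and HEC265 (47.5%). Among the other lines few members were separate: 0 of 13 were separate between Ishikawa and SNGM (47.9% of all genes), 1 between Ishikawa and HEC265 (51.7%) and 1 between SNGM and HEC265 (42%). For MT-ND5, the lowest, median and highest CPM were 12757, 15838 and 17487 in Ishikawa-S33Y, against 1877, 5034 and 8236 in Ishikawa. For MT-ND6 they were 4618, 5626 and 6237 against 624, 1788 and 2855.

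Across the 4 lines on vehicle, 8 of 13 members differed in an F test (limma, adjusted p under 0.05), compared with 86.9% of all genes. The 8 were all 7 complex I genes and MT-ATP8. MT-ATP6, MT-CO1, MT-CO2, MT-CO3 and MT-CYB did not pass, with adjusted p from 0.125 to 0.922. Leaving out Ishikawa-S33Y vehicle replicate 1 or 2 lowered the count to 5 or 4.

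**Figure D2:**
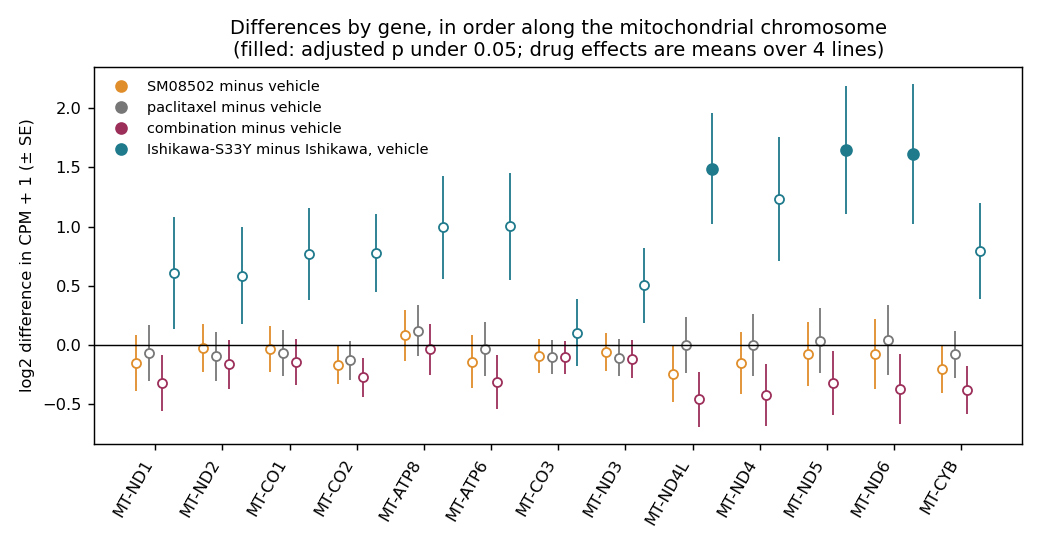
Difference in log2(CPM + 1) for each mitochondrial mRNA, in gene order along the chromosome (horizontal axis). Points are the SM08502, paclitaxel and combination effects averaged over 4 lines and the vehicle difference Ishikawa-S33Y minus Ishikawa, bars are 1 SE, and filled points passed an adjusted p of 0.05; only MT-ND4L, MT-ND5 and MT-ND6 in the line comparison are filled.

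The balance among the mRNAs was described as each gene's percent of the summed reads of the 13, which does not depend on how large a share of the library they take. Complex I genes made up 51.3% to 54.0% of mitochondrial mRNA reads in Ishikawa-S33Y, 39.4% to 49.9% in Ishikawa, 40.3% to 42.1% in HEC265 and 24.1% to 36.2% in SNGM. Complex IV genes ran the other way, at 34.1% to 37.3% in Ishikawa-S33Y, 37.9% to 49.3% in Ishikawa, 43.9% to 46.4% in HEC265 and 49.8% to 64.9% in SNGM. Ishikawa-S33Y and SNGM were thus at opposite ends, with no overlap between them in either class. The classes divide the same total, of which complex III took only 5.31% to 7.95% and complex V 4.81% to 7.23%. The complex IV values therefore largely follow from those of complex I and are not a separate result.

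Among the complex I genes, MT-ND1, a subunit next to the quinone-binding site, ranged over 11.1% to 14.9% for Ishikawa and 11.3% to 12.6% for Ishikawa-S33Y, but 5.51% to 8.01% in SNGM and 6.77% to 7.33% in HEC265. The ranges of the Ishikawa lines overlapped each other, and neither reached those of SNGM or HEC265. MT-ND2, a proton-pumping subunit of the membrane arm, took 8.72% to 10.9% for Ishikawa, 8.30% to 8.54% for Ishikawa-S33Y, 5.19% to 5.72% for SNGM and 7.47% to 9.71% for HEC265. The SNGM values lay below all others. MT-ND4, another proton-pumping subunit, made up 13.7% to 15.1% in Ishikawa-S33Y and 5.66% to 10.4% in SNGM, with HEC265 (11.4% to 13.4%) and Ishikawa (8.75% to 13.6%) between.

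MT-ND5 and MT-ND6 set Ishikawa-S33Y apart by share as they did by level. MT-ND5 made up 11.1% to 12.3% there and at most 9.10% in any library of another line. MT-ND6 made up 3.88% to 4.4% there, 3.35% to 3.59% in HEC265, 1.60% to 3.23% in Ishikawa and 1.35% to 2.89% in SNGM. The smaller complex I genes were a minor part everywhere, with MT-ND3 at 0.581% to 1.65% and MT-ND4L at 0.434% to 1.22% over the 32 libraries.

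In complex IV, MT-CO1, the catalytic subunit, made up 30.5% to 35.3% in SNGM and 21.6% to 25.5% in the other lines. MT-CO3 made up 6.32% to 6.58% in Ishikawa-S33Y, a narrow range below every other library, and 8.64% to 16.1% in Ishikawa, 10.5% to 19.7% in SNGM and 11.6% to 12.5% in HEC265. MT-CO2, the subunit that receives electrons from cytochrome c, ranged over 5.86% to 7.73% for Ishikawa and 6.05% to 6.92% for Ishikawa-S33Y, below SNGM (7.99% to 11.5%) and HEC265 (8.43% to 10.0%). MT-CYB, cytochrome b and the one complex III gene, had the narrowest range in proportion of the 13, at 5.31% to 7.95% over all libraries, and was lower in both Ishikawa lines (at most 5.98%) than in SNGM and HEC265 (at least 6.18%).

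Complex V holds the gene with the clearest gap between HEC265 and the other lines. MT-ATP8, a short accessory subunit of the ATP synthase membrane part, had 233 and 278 CPM on vehicle in HEC265, against 1003 and 823 for Ishikawa, 1659 and 1975 for Ishikawa-S33Y, and 484 and 1090 for SNGM. Its share was 0.362% to 0.628% in HEC265 and at least 0.902% in each library of the other lines. The level difference among lines had an adjusted p of 4.56e-05 in the limma F test. Its overlapping neighbour MT-ATP6, which encodes the proton-channel subunit, went the other way: 6.08% to 6.60% in HEC265 and 3.83% to 5.30% elsewhere.

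Relative to the mitochondrial mRNA total, the limma F test among lines on vehicle called only MT-ATP8 (adjusted p = 6.29e-04), where 72.4% of all genes passed and 3 members had an unadjusted p under 0.05. In this fit each gene's spread is drawn toward that of other genes, whose spread on this scale is inflated by dividing by the mitochondrial total. Without that step, an alternative chosen after seeing the data, 12 of 13 passed (62.5% of all genes), all but MT-ND3 (adjusted p = 0.0952). With the length score as a covariate the moderated test called 4, and without the 2 shallow libraries 3. Leaving out 1 library gave 1 to 4 calls: 4 without either Ishikawa SM08502 library, 3 without either Ishikawa paclitaxel, SNGM paclitaxel or SNGM combination library, and 2 without SNGM vehicle replicate 2.

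**Figure D3:**
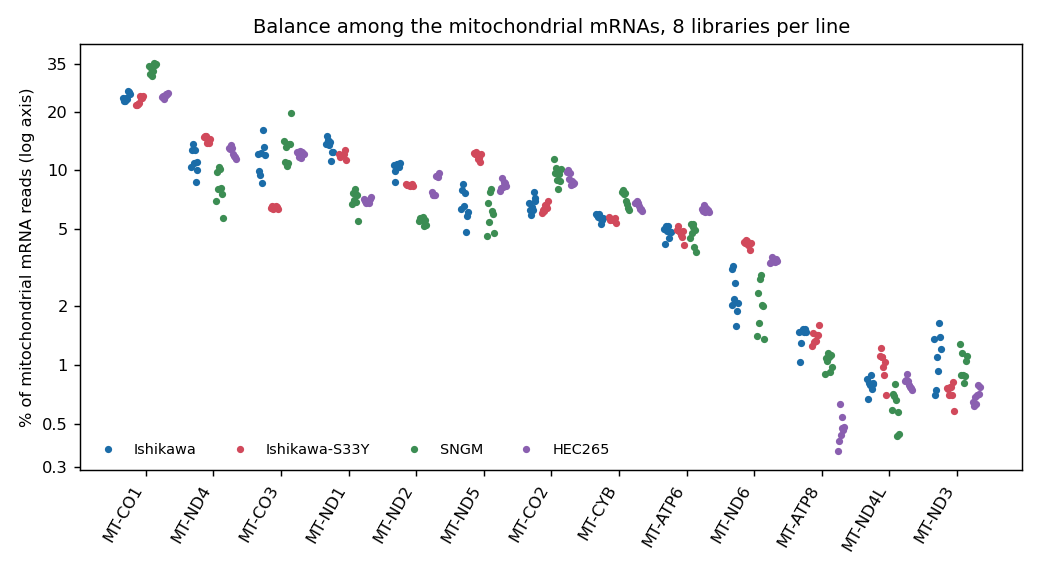
Percent of mitochondrial mRNA reads taken by each of the 13 genes (vertical axis, logarithmic), 1 point per library, coloured by line. MT-CO1 is high in all 8 SNGM libraries (30.5% to 35.3%), MT-CO3 low in all 8 Ishikawa-S33Y libraries (6.32% to 6.58%) and MT-ATP8 low in all 8 HEC265 libraries (0.362% to 0.628%).

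Per kilobase of gene, MT-CO1 ranked first over all libraries, with a median of 11820 CPM per kb, followed by MT-CO3 (10578), MT-CO2 (9264), MT-ND1 (7113) and MT-ND4 (6377). MT-ND3 (2037) and MT-ND4L (1879) ranked last. The ranges of neighbours in this order overlapped. The order differed by line. MT-CO1 had rank 1 in all lines but HEC265 (rank 2), and MT-CO3 had rank 1 in HEC265, rank 2 in SNGM, rank 3 in Ishikawa and rank 5 in Ishikawa-S33Y. MT-ND1 had rank 2 in both Ishikawa lines, 4 in SNGM and 7 in HEC265, and MT-ND4 had rank 3 in Ishikawa-S33Y, 4 in HEC265, 6 in Ishikawa and 7 in SNGM. MT-CO2 ranked 3 to 5. MT-ATP8 had rank 8 or 9 in the other lines and rank 12 in HEC265.

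The balance within Ishikawa varied between replicates alongside the length score. In Ishikawa, MT-CO3 made up 9.44% in the library with the highest score (paclitaxel replicate 1, -1.46) and 8.64% in SM08502 replicate 1 (-2.20), but 16.1% in SM08502 replicate 2 (-3.00) and 12.2% in paclitaxel replicate 2 (-3.07). MT-ND5 in the same libraries made up 8.50%, 7.64%, 4.80% and 6.54%. The 3 Ishikawa libraries with a score of -2.27 or higher held 8.64% to 9.95% MT-CO3 and 7.64% to 8.50% MT-ND5, and the other 5 held 12.005% to 16.1% and 4.80% to 6.54%.

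The same libraries differed in total share: SM08502 replicate 2, with 16.1% MT-CO3, had the lowest mitochondrial share of all (3.91%), and SM08502 replicate 1 the highest of its line (10.8%). In SNGM the library with the lowest score (-0.64) was the shallow combination replicate 2, with 19.7% MT-CO3 and 4.77% MT-ND5. The highest score there was that of vehicle replicate 2 (0.06), with 11.0% and 6.76%. SNGM libraries with scores between these did not follow the score. Complex I genes made up 35.9% in SM08502 replicate 1 (-0.37) and 27.0% in vehicle replicate 1 (-0.32), against 33.8% in vehicle replicate 2. Between lines, Ishikawa-S33Y lay between Ishikawa and HEC265 in median score, with a range that overlapped both, and below every library of both in MT-CO3. The part of RNA quality in these values was not tested.

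**Figure D4:**
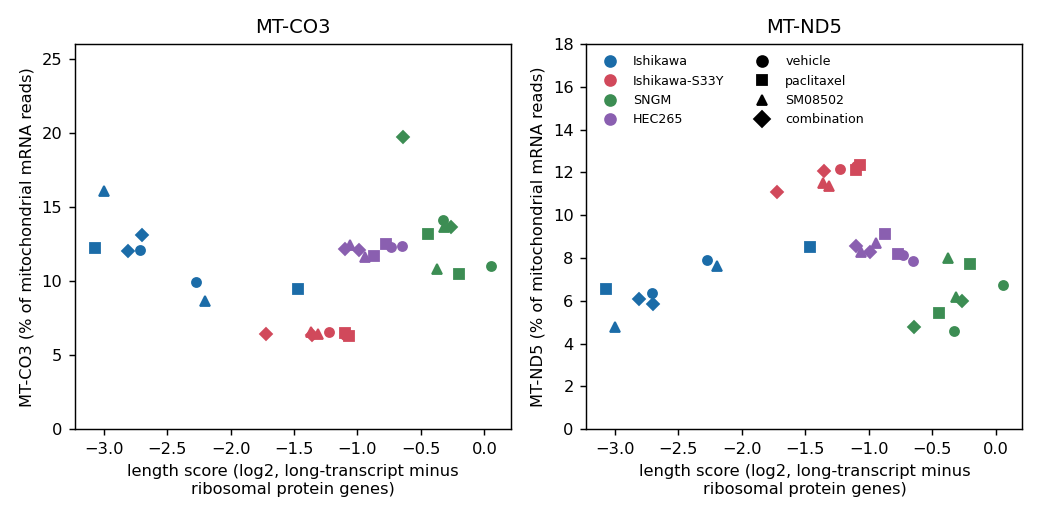
MT-CO3 (left) and MT-ND5 (right) as percent of mitochondrial mRNA reads (vertical axes) against the length score of each library (horizontal axes, log2). Colours are lines and symbols treatments; in Ishikawa MT-CO3 ranges from 8.64% to 16.1%, with the lower values at higher scores, while Ishikawa-S33Y stays at 6.32% to 6.58%.

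Drug effects on the levels of the 13 mRNAs were next tested, to ask whether CLK inhibition, the taxane or both altered mitochondrial transcripts while changing nuclear ones. In limma's test no member passed in any of the 12 comparisons of a drug with vehicle within a line, and none had an unadjusted p under 0.05. Of all genes, SM08502 moved 15.2% past the threshold for Ishikawa, 29.1% for Ishikawa-S33Y, 7.86% for SNGM and 14.7% for HEC265. For the combination the same lines gave 22.8%, 42%, 18.4% and 19.5%. With paclitaxel 0.0118% of all genes passed in Ishikawa, 0.0176% in SNGM, 0.00588% in HEC265 and 0% in Ishikawa-S33Y, where 122 had an unadjusted p under 0.05.

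Averaged over the lines, 38.5% of all genes and 0 of 13 members were called with SM08502, and no member had an unadjusted p under 0.05. The members' median difference was -0.09 (all genes 0.05), from -0.24 (MT-ND4L, SE 0.24, limma adjusted p = 0.447) to 0.08 (MT-ATP8, SE 0.22, adjusted p = 0.801). With paclitaxel 0% of all genes were called, with 480 genes at an unadjusted p under 0.05, and the members ranged from -0.13 (MT-CO2) to 0.12 (MT-ATP8). The standard errors of these averages ran from 0.14 to 0.29, so changes of this size were within the spread between replicates. For the nuclear genes tested by name below, those of the averages were smaller, from 0.039 (KIAA0391) to 0.12 (POLRMT). Within lines the members' standard errors were 0.28 to 0.59. The share of all genes called is therefore not a like comparator for the members in these drug tests, and a modest change in a member could go uncalled.

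With the combination all 13 differences averaged over lines were negative, with a median of -0.31 (all genes 0.04) and a range of -0.46 to -0.04. Since the 13 mRNAs together make up the library's mitochondrial share, their signs are not independent of one another. Again 0 of 13 passed, compared with 49.1% of all genes. The lowest adjusted p was that of MT-ND4L (-0.46, SE 0.24, limma adjusted p = 0.112). By line, the members' median was -0.46 in Ishikawa, -0.56 in SNGM, 0.03 in Ishikawa-S33Y and -0.04 in HEC265.

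Without SNGM vehicle replicate 1, MT-ND4L passed (-0.61, adjusted p = 0.0422), and without SNGM combination replicate 1 both MT-ND4L (-0.61, adjusted p = 0.0313) and MT-CYB (-0.49, adjusted p = 0.0470) did. Over Ishikawa-S33Y and HEC265 alone, MT-ATP8, MT-CO1, MT-ND1, MT-ND2 and MT-ND3 had positive values. The combination minus SM08502, averaged over lines, ranged from -0.30 (MT-ND6) to -0.01 (MT-CO3) with 0 of 13 called, 0 at an unadjusted p under 0.05, and 0.047% of all genes called. SM08502 and the combination share their vehicle libraries, so the signs of these comparisons are not independent.

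Whether a drug's effect differed among lines was tested by an F test on the interaction, and no member passed for SM08502 (lowest adjusted p = 0.826, 12.4% of all genes), paclitaxel (adjusted p = 1, 0%) or the combination (lowest adjusted p = 0.532, 27.1%). None had an unadjusted p under 0.05. Replicate spread was smallest in Ishikawa-S33Y and HEC265, whose fits alone called 40.3% and 41.3% of all genes with SM08502, compared with 0.282% for Ishikawa alone and 0.735% for SNGM alone. In those fits, too, no member passed. The nearest was MT-ND4L in Ishikawa-S33Y, with 1477 and 1651 CPM on vehicle, 1096 and 1195 with SM08502 and 1415 and 997 with the combination.

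MT-ND4L was lower there in both SM08502 libraries than in both vehicle libraries, at -0.45 (limma adjusted p = 0.0624 in the fit of that line alone). In HEC265 its levels were 536 and 574 CPM on vehicle and 572 and 371 with SM08502, which overlap. Averaged over these 2 lines in a fit without the others, an alternative chosen after seeing the data, MT-ND4L was the one member called with SM08502 (-0.36, SE 0.13, limma adjusted p = 0.0342), where 52.3% of all genes were called.

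On the scale of balance, drug effects averaged over lines ranged from -0.22 (MT-ND4L) to 0.21 (MT-ATP8), both with the combination. In the moderated test 0 of 13 passed with SM08502 (2.44% of all genes) or the combination (15.4%), with 0 at an unadjusted p under 0.05. Its standard errors for the members were 0.22 to 0.23, drawn toward the inflated spread of other genes. Effects of this size could therefore not pass, and the moderated test cannot decide on them. Without shrinkage of the spread, MT-CYB fell with SM08502 by 0.10 (SE 0.017, adjusted p = 0.0111, 0.653% of all genes called) and with the combination by 0.14 (SE 0.017, adjusted p = 7.34e-04, 6.14% of all genes called). In that fit MT-CO1 rose with the combination by 0.10 (SE 0.026, adjusted p = 0.0417).

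MT-CYB was a steady part of the total, so small shifts stood out from its spread. In SNGM its share was 7.69% and 7.95% on vehicle, 6.91% and 6.72% with SM08502 and 6.43% and 6.23% with the combination. In HEC265 it was 6.82% and 6.79%, then 6.54% and 6.33%, then 6.35% and 6.18%. Neither line showed overlap between vehicle and SM08502 or the combination, whereas in Ishikawa-S33Y the vehicle values of 5.73% and 5.58% overlapped those with SM08502 (5.56% and 5.61%).

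In HEC265, where replicates lay close together, the shares of 7 of 13 genes did not overlap between the 4 libraries with SM08502 and the 4 without, where 16% of all genes did not on the same scale. On this scale every gene is divided by the mitochondrial total, which ranged from 4.80% to 7.20% of reads in HEC265. This adds spread to nuclear genes but not to the members' shares. The percent of all genes is therefore not a like comparator, in this line or in the others below. The split was chosen after the values were seen, and no test is given. MT-ND2, MT-CO1 and MT-ND3 were higher with SM08502, and MT-CO2, MT-ND4, MT-CYB and MT-ND4L lower. MT-ND2 made up 7.72% and 7.47% of mitochondrial mRNA reads on vehicle and 7.48% and 7.47% with paclitaxel, but 9.30% and 9.31% with SM08502 and 9.27% and 9.71% with the combination. Both groups that received SM08502 were above both that did not. MT-CO2 went from 9.76% and 10.0% on vehicle to 8.43% and 8.84% with SM08502 and 8.52% and 8.60% with the combination, and MT-ND4 from 13.01% and 12.9% to 12.2% and 11.8% and then 11.7% and 11.4%. With paclitaxel alone MT-CO2 was at 9.06% and 9.72% and MT-ND4 at 13.4% and 12.9%. MT-CO1 ranged from 23.1% to 24.1% without SM08502 and from 24.4% to 24.9% with it.

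The same split separated 5 of 13 genes in Ishikawa-S33Y (39.8% of all genes), where MT-CO1 (21.6% to 22.1% without SM08502, 23.5% to 24.1% with it) and MT-CO2 were higher, and MT-ND4, MT-ND4L and MT-ND5 lower. In Ishikawa and SNGM it separated MT-CYB alone, which was lower (2.57% and 3.58% of all genes). MT-CO2 was thus higher with SM08502 in Ishikawa-S33Y and lower in HEC265, a difference that was not tested.

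MT-ND2 was separated by this split in HEC265 only. It made up 8.54% and 8.42% on vehicle and 8.34% and 8.41% with SM08502 for Ishikawa-S33Y, and 5.49% and 5.68% against 5.72% and 5.19% for SNGM. In Ishikawa both SM08502 libraries (10.71% and 10.74%) were just above both vehicle libraries (10.68% and 9.89%), while the combination (10.4% and 10.9%) overlapped vehicle. Its level in HEC265 was 4964 and 5109 CPM on vehicle and 6699 and 4467 with SM08502, so in CPM the groups overlapped. The length score of the HEC265 libraries ranged from -1.10 to -0.94 with SM08502 and from -0.87 to -0.65 without it, which do not overlap either. In Ishikawa-S33Y the score was -1.72 to -1.31 with SM08502 and -1.23 to -1.07 without. Its part in these shares was not tested.

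**Figure D5:**
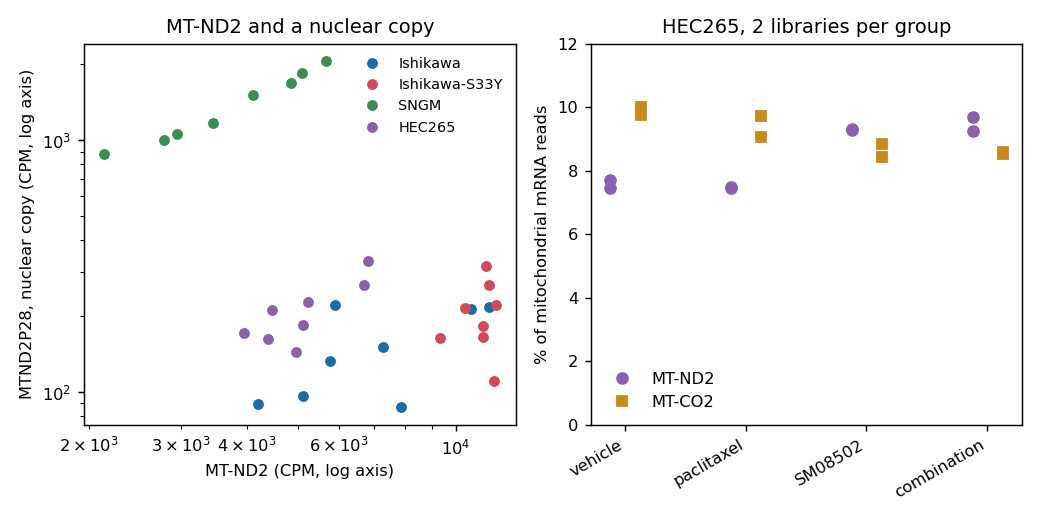
Left, CPM of the nuclear copy MTND2P28 against that of MT-ND2 (both axes logarithmic), 1 point per library; the 8 SNGM libraries lie at 881 to 2058 CPM of the copy. Right, MT-ND2 and MT-CO2 as percent of mitochondrial mRNA reads in HEC265 by treatment, 2 libraries a group; MT-ND2 is at 7.47% to 7.72% without SM08502 and at 9.27% to 9.71% with it.

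Fragments of mitochondrial DNA inserted in nuclear chromosomes can resemble the members and take their reads. How reads that match both were assigned is not given in the sources used here. The table listed 386 nuclear copies by symbol, of which 18 passed the filter. The list also holds copies of the 16S ribosomal RNA gene, which is not a member. With these included, the summed CPM of the copies came to 1.99% to 2.44% of that of the mitochondrial mRNAs in SNGM. In the other lines it came to 0.351% to 0.943%. By mean CPM the leading ones were MTND2P28, MTRNR2L12, a copy of the 16S ribosomal RNA gene, and MTATP6P1.

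MTND2P28, a copy of MT-ND2, was higher in every SNGM library than in any other library. Its lowest, median and highest CPM were 881, 1341 and 2058 for SNGM, 86.5, 141 and 220.4 for Ishikawa, 110.0, 199 and 316 for Ishikawa-S33Y, and 144, 198 and 331 for HEC265. Within HEC265 MTND2P28 was at 144 to 184 CPM without SM08502 and at 212 to 331 with it. In SNGM the copies of MT-ND2 took 25.4% to 29.2% of the reads of the gene and its copies together, and at most 4.64% in any library of another line. MT-ND2, whose share of mitochondrial mRNA was lowest in SNGM, is therefore an uncertain value in that line. Adding such reads back was not tested. For MT-ATP6 the copies took at most 4.04% in any library. For MT-ATP8 they took 1.12% to 1.74% in HEC265, the line where its share was lowest, and at most 0.0139% in any library of another line. The part of these copies in the MT-ATP8 values was not tested.

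The nuclear genes that express and copy mitochondrial DNA were examined with a list of 43, all of which passed the filter. With SM08502 averaged over lines, 18 rose and 6 fell (limma adjusted p under 0.05), compared with 22.6% and 15.8% of all genes, and the list's median was 0.16 against 0.05 for all genes. With the combination 23 rose and 8 fell, compared with 29% and 20.1%, and the median was 0.19. With paclitaxel, and for the combination minus SM08502, 0 were called.

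Among the 10 transcription genes, 7 rose and 1 fell with SM08502. TFAM, which packages mitochondrial DNA and starts its transcription, had 54.1 and 51.0 CPM on vehicle and 66.9 and 76.4 with SM08502 in Ishikawa, and 38.7 and 39.5 against 60.7 and 65.1 in Ishikawa-S33Y. In SNGM it had 77.2 and 64.2 against 80.8 and 87.5, and in HEC265 86.2 and 90.7 against 96.5 and 94.7. The SM08502 libraries were above the vehicle libraries in every line, and the average was 0.37 (SE 0.058, limma adjusted p = 3.90e-05). With the combination TFAM rose by 0.52 (SE 0.058, adjusted p = 3.28e-07).

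POLRMT, the mitochondrial RNA polymerase, was not called, at 0.23 with SM08502 (SE 0.12, limma adjusted p = 0.154) and 0.05 with the combination (adjusted p = 0.747). MTERF4, which acts in mitochondrial ribosome assembly, rose by 0.44 with SM08502 (adjusted p = 1.72e-05) and by 0.71 with the combination (adjusted p = 2.25e-08). MTERF1, a DNA-binding terminator of transcription, rose by 0.64 with the combination (adjusted p = 5.59e-07). TFB1M, a methyltransferase of mitochondrial ribosomal RNA, fell by 0.35 and 0.38 (adjusted p = 3.93e-04 and 1.01e-04). These averages did not hold in every line. In Ishikawa TFB1M had 6.54 and 6.68 CPM on vehicle, 6.13 and 7.84 with SM08502 and 6.65 and 6.64 with the combination, which overlap. MTERF4 in SNGM had 10.98 and 10.52 CPM on vehicle and 12.49 and 9.61 with SM08502, which overlap too.

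Of the 19 genes of RNA processing and stability, 9 rose and 3 fell with SM08502, and 11 rose and 4 fell with the combination. FASTKD5, which is needed to release mRNAs not flanked by transfer RNAs, rose by 0.58 with SM08502 (SE 0.052, limma adjusted p = 3.20e-08) and 0.67 with the combination (adjusted p = 2.40e-09). In HEC265 it went from 42.6 and 45.4 CPM on vehicle to 76.6 and 81.5 with SM08502. PTCD2, an RNA-binding protein linked to cytochrome b mRNA, rose by 0.46 with SM08502 (adjusted p = 9.76e-07).

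LRPPRC, which stabilises most mitochondrial mRNAs, was at -0.14 with SM08502 (SE 0.068, limma adjusted p = 0.106) and fell by 0.22 with the combination (adjusted p = 0.00965). In Ishikawa-S33Y LRPPRC had 308 and 313 CPM on vehicle, 207 and 193 with SM08502 and 154 and 204 with the combination. The other lines moved less with the combination. Ishikawa went from 375 and 393 to 361 and 360 CPM, and HEC265 from 653 and 674 to 613 and 554. SNGM had 406 and 357 on vehicle and 388 and 480 with the combination, which overlap. KIAA0391, the nuclease subunit of mitochondrial RNase P also called PRORP, fell by 0.37 with the combination (adjusted p = 1.33e-07).

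Among the 8 replication genes, 1 rose and 1 fell with SM08502. The gene that fell was POLG, the catalytic subunit of the mitochondrial DNA polymerase, at -0.45 (SE 0.094, limma adjusted p = 6.63e-04), with 49.5 and 49.3 CPM on vehicle and 47.4 and 49.6 with SM08502 in HEC265, against 47.8 and 44.2 and then 29.7 and 29.8 in Ishikawa-S33Y. POLG was thus nearly level in HEC265. Of 6 nuclear regulators, 1 rose and 1 fell. PPARGC1A, a coactivator of mitochondrial biogenesis, fell by 0.47 with SM08502 (adjusted p = 5.26e-04), a value that rests on the Ishikawa lines, since it was at or below 0.334 CPM in every SNGM and HEC265 library. It did not pass with a pseudocount of 0.1 (adjusted p = 0.109) or with limma voom (adjusted p = 0.352).

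On vehicle, Ishikawa-S33Y had 4 of the 43 higher and 20 lower than Ishikawa, compared with 20% and 28.2% of all genes. The higher ones included PPARGC1A, with 66.9 and 65.1 CPM against 15.1 and 18.7 (1.91 on the log2 scale), and the lower ones included TFAM (-0.42) and TFB2M (-1.37), a mitochondrial transcription initiation factor. The list's median was -0.28. All 13 mitochondrial mRNAs had positive differences in this comparison, while most called genes of the list had negative ones. The signs of the 13 are not independent of one another. The length score also differed between these lines, and its part in the list's values was not tested.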

How the data were processed

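RNA of 32 libraries (16 groups of 2) was measured after ribosomal RNA depletion. The deposited table holds log10(CPM + 1), a unit checked on the values, since CPM recovered from it add up to 1000000 per library. Per the submitters' processing notes, bcl2fastq, STAR, kallisto and GRCh38 were used; their roles, the annotation and the counting program are not given in the sources used here. Whole reads were recovered for 100% of values (within 0.02 reads). Tables of splicing events were not analysed here.

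CPM above 1 in at least 2 libraries kept 17011 genes. limma 3.58.1 (R 4.3.3) was fitted to log2(CPM + 1) of all genes with 16 group means, an intensity trend, 16 residual and 4.90 prior degrees of freedom, and p was adjusted over all genes by the Benjamini-Hochberg method; all tests were two-sided. Differences on this scale understate changes of low genes. For balance, log2 of the summed CPM of the 13 mRNAs was subtracted from every gene in its library. Gene positions come from RefSeq GRCh38.p14, matched for 13 of 13 members. The members, the lists and the rules were chosen with earlier results of these data known. All members were named; of the list of 43, the 3 largest called rises and falls in each comparison averaged over lines, and POLRMT, TFAM, LRPPRC and POLG; of nuclear copies, the 3 of highest mean CPM; other genes were named after their values were seen. Data were simulated from the HEC265 vehicle means, the real library sizes and a dispersion fixed for all genes. There the HEC265 SM08502 comparison recovered 85% of 200 genes changed 2-fold and 9.5% of 200 changed 1.5-fold. Of its calls, 0.585% were false at 2-fold and 9.52% at 1.5-fold. The spread was not matched to the members, whose SE in the real comparison was 0.28 to 0.59. These percents therefore do not carry over to the 13 mRNAs. Alternatives covered filters, pseudocount, scaling, trend, shrinkage, covariates, sample subsets, a replicate block and leaving out each library.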

Additional observations from a re-analysis of the deposited data

Results flagged for a closer look

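In 7 cases a gene's percent of mitochondrial mRNA reads was above vehicle in both treated libraries of a line and below it in both of another. Each group held 2 libraries, and these differences between lines were not tested. The cases were picked by this rule from all the members, and the share of all genes meeting it is not given. With 2 libraries a group, replicate spread alone can give such separations. The count therefore does not show line-specific drug responses. The margins of MT-ND2 with SM08502 were narrow in both Ishikawa lines. With SM08502, MT-CO2 was 0.493 percentage points higher in Ishikawa-S33Y, 1.78 lower in SNGM (a difference between lines of 2.27) and 1.25 lower in HEC265 (1.74). MT-ND2 was 0.444 higher in Ishikawa and 1.71 higher in HEC265 but 0.104 lower in Ishikawa-S33Y, which gave differences of 0.549 and 1.82. MT-ND3 differed by 0.363 between HEC265 (higher) and SNGM (lower), and MT-ND5 by 1.27 between HEC265 (higher) and Ishikawa-S33Y (lower).

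With the combination, MT-CO2 was higher in Ishikawa and Ishikawa-S33Y and lower in HEC265, with differences of 1.87 and 1.85 percentage points. MT-ND1 was higher in HEC265 and lower in Ishikawa, by 2.12. MT-ND5 was higher in HEC265 and lower in both Ishikawa lines, by 1.59 for Ishikawa and 1.08 for Ishikawa-S33Y. The Ishikawa libraries in these comparisons differed in length score, from -2.81 to -2.27, and its part was not tested.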

How the results depend on the processing

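For Ishikawa-S33Y minus Ishikawa the count of members called was 1 with no filter, 5 with the stricter filter, without the 2 shallow libraries and with limma voom, 0 with the length score as covariate, and 0 to 8 when 1 library was left out. MT-CO3 turned to -0.42 and MT-ND1 to -0.12 with quantile normalization, and MT-ND1 to -0.0678 with the length covariate. For the lines on vehicle the count was 4 to 8 when 1 library was left out; for the balance among lines it was 5 with the stricter filter, 4 with the length covariate, 3 without the shallow libraries, 12 without shrinkage and 1 to 4 with 1 library left out. Without shrinkage the balance counts were 1 with SM08502 and 2 with the combination. For drug effects on levels, the SM08502 average gave 1 call in Ishikawa-S33Y and HEC265 alone, and leaving out 1 library gave 0 to 1 calls for the combination in SNGM and 0 to 2 for its average. In that average MT-ATP8 turned to 0.0434 with the length covariate, 0.0668 without the shallow libraries and 0.22 in Ishikawa-S33Y and HEC265 alone, and ran from -0.18 to 0.11 with 1 library left out; MT-ND3 turned to 0.0355 without the shallow libraries. In Ishikawa-S33Y and HEC265 alone MT-CO1 was at 0.0831, MT-ND1 at 0.0139, MT-ND2 at 0.144 and MT-ND3 at 0.0363. Where a library outside the vehicle groups of Ishikawa and Ishikawa-S33Y was left out, the log2 differences between these lines stayed the same. Only the spread estimate shared by the groups changed there. The cause of the other changes was not tested. The share rose by 0.057 to 0.612 percentage points when the 2 most abundant other genes were left out of the total, and restricting the members to mRNAs left the same 13 genes.

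Deviations of same-numbered libraries did not correlate above 0.1 in every pair, which the numbers would need to be taken as pairs; correlations were -0.33 to 0.70 in Ishikawa, -0.05 to 0.03 in Ishikawa-S33Y, -0.45 to 0.43 in SNGM and -0.06 to 0.08 in HEC265. With the replicate block, 3 members were called in Ishikawa-S33Y minus Ishikawa and 0 with SM08502, paclitaxel or the combination. The planned count-model test was not run; limma voom on the recovered reads took its place and was chosen after seeing the data, as were the fit without shrinkage and the fit of Ishikawa-S33Y and HEC265 alone.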
